A study of Saccharomyces cerevisiae with 30 samples.

Results

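YRF1 is the family of helicase genes carried by the Y′ elements, repeats that lie just inside the telomeres of budding yeast (Saccharomyces cerevisiae). All 8 genes named YRF1 in the RefSeq gene table, of 6431 nuclear genes, were taken as members, each as its gene interval with 500 bp on each side. At YRF1-6 and YRF1-7 the chromosome begins sooner, so their intervals were 6598 and 6507 bp. At right chromosome ends the full 500 bp was counted in the length, even where the chromosome may end sooner. For every member the number of break peaks, their fold over background, the position of each summit along the gene and the percent of the interval covered by peaks were read from 16 Break-seq peak lists, and its overlap with 2 Orc5 peak lists was read as well.

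A Y′ element sits between the telomeric repeats and the rest of the chromosome, and most copies hold one long reading frame for a helicase. The copies are kept alike by recombination, and cells that lose telomerase can survive by amplifying Y′ elements. The elements also contain sequences that can act as replication origins. Because the copies are near-identical, a short read can match several of them. How such reads were placed is not given in the sources used here, so the members are not independent, and a peak at one copy cannot be told apart from reads that came from another copy or from a Y′ element missing from the assembly.

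Break-seq labels and sequences the ends of broken DNA. The 16 libraries came from 4 strains built for anchor-away, a method in which rapamycin pulls a protein tagged with FRB out of the nucleus. The strains were WT-FRB, INO80-FRB, Mot1-FRB and INO80-FRB Mot1-FRB, called WT, INO80, Mot1 and INO80 Mot1 here. INO80 is a chromatin remodelling ATPase, and Mot1 removes the TATA-binding protein from DNA. All 4 strains had rapamycin for 3 h, WT included, so WT is a control for the depletions and not for rapamycin itself. Each strain was sampled without and with 100 mM hydroxyurea (HU), which lowers deoxynucleotide supply and slows replication forks, with 2 libraries per group. The Orc5 lists came from Orc5-FRB cells and cover a subunit of the origin recognition complex, with 1 library without and 1 with rapamycin. The Arp5 lists came from Arp5-FRB cells, with 2 libraries without and 2 with rapamycin. In the ChIP libraries with rapamycin it was given for 1 h, after nocodazole and before arrest in G1 by alpha factor. The labels do not state whether the 2 libraries of a group were grown separately, so the p-values here measure a spread that may be technical.

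The lists differed in length, and read depth is unknown. The 12 lists of WT, INO80 and INO80 Mot1 held 180 to 510 peaks (median 332.5) and are called the long lists. The 4 Mot1 lists held 40, 14, 24 and 5 peaks. The background under the peaks, recovered from the deposited fold and p-value, had a median of 11.2 to 37.9 reads per list in the long lists and of 0.861, 1.26, 0.430 and 29.6 reads in the Mot1 lists. Values of 0 in Mot1 lists are therefore values of very short lists, and an absent peak there means that none was called at that depth.

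All 8 genes lie at chromosome ends and read toward the telomere (assembly R64, 1-based coordinates). YRF1-1 (YDR545W) lies at IV:1526321-1531711, YRF1-2 (YER190W) at V:571480-576525 and YRF1-3 (YGR296W) at VII:1084864-1090591. YRF1-4 (YLR466W) and YRF1-5 (YLR467W) lie in tandem on chromosome XII, at XII:1067087-1071235 and XII:1072508-1077898. YRF1-6 (YNL339C) lies at the left end of chromosome XIV, at XIV:371-6098, YRF1-7 (YPL283C) at the left end of chromosome XVI, at XVI:280-6007, and YRF1-8 (YOR396W) at XV:1085473-1090863. Spans fell into classes: YRF1-3, YRF1-6 and YRF1-7 each spanned 5728 bp, YRF1-1, YRF1-5 and YRF1-8 each 5391 bp, YRF1-2 5046 bp and YRF1-4 4149 bp. YRF1-2 overlaps the annotated frames YER189W and YER190C-B.

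Every YRF1 gene had at least 1 break peak in each of the 12 long lists, a pattern shared by 1.62% of the 6431 nuclear genes and by 54.2% of the 192 genes with a peak in at least 4 of the 16 lists. In the long lists 410 peaks lay in the 8 intervals. They made up between 8.43% and 11.8% of each long list (median 10.5%). In the Mot1 lists 7 peaks lay there (10%, 7.14%, 8.33% and 0% of the 4 lists), at YRF1-3, YRF1-6 and YRF1-7. With these, YRF1-6 had a peak in 15 lists, YRF1-7 in 14, YRF1-3 in 13 and the other 5 genes in 12. A peak in 13 or more lists was found for 17.2% of the 192 genes.

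The share of a gene interval covered by peaks, its percent covered, was used as the level. Over the long lists it was highest at YRF1-1, with 38.4% ± 15.8 (SD, n = 12 lists of 6 groups). YRF1-2 followed with 34.9% ± 14.8, YRF1-8 with 34.7% ± 11.6, YRF1-7 with 33.1% ± 11.6, YRF1-6 with 31.8% ± 11.8 and YRF1-3 with 30.3% ± 11.3. The tandem genes on chromosome XII were lowest, YRF1-5 with 20.6% ± 8.67 and YRF1-4, the shortest frame, with 15.1% ± 6.02. Neighbours in this order differed by less than the SD of their difference over lists, except YRF1-3 and YRF1-5, which differed by 9.72 points (SD 7.16, higher at YRF1-3 in 11 of 12 lists). The median of the 8 levels was 32.4%, beside 21.6% over the 192 genes. Background under the peaks differed between copies. In the first WT library it was 57.8 to 72.1 reads at YRF1-4, 35.8 to 72.1 at YRF1-5 and 31.1 to 47.4 at YRF1-3. The read pileups, recovered with it, were 121 to 159, 85 to 128 and 71 to 135. YRF1-4 was thus lower in coverage but not in pileup there. The part of the background in the coverage was not tested.

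**Figure D1:**
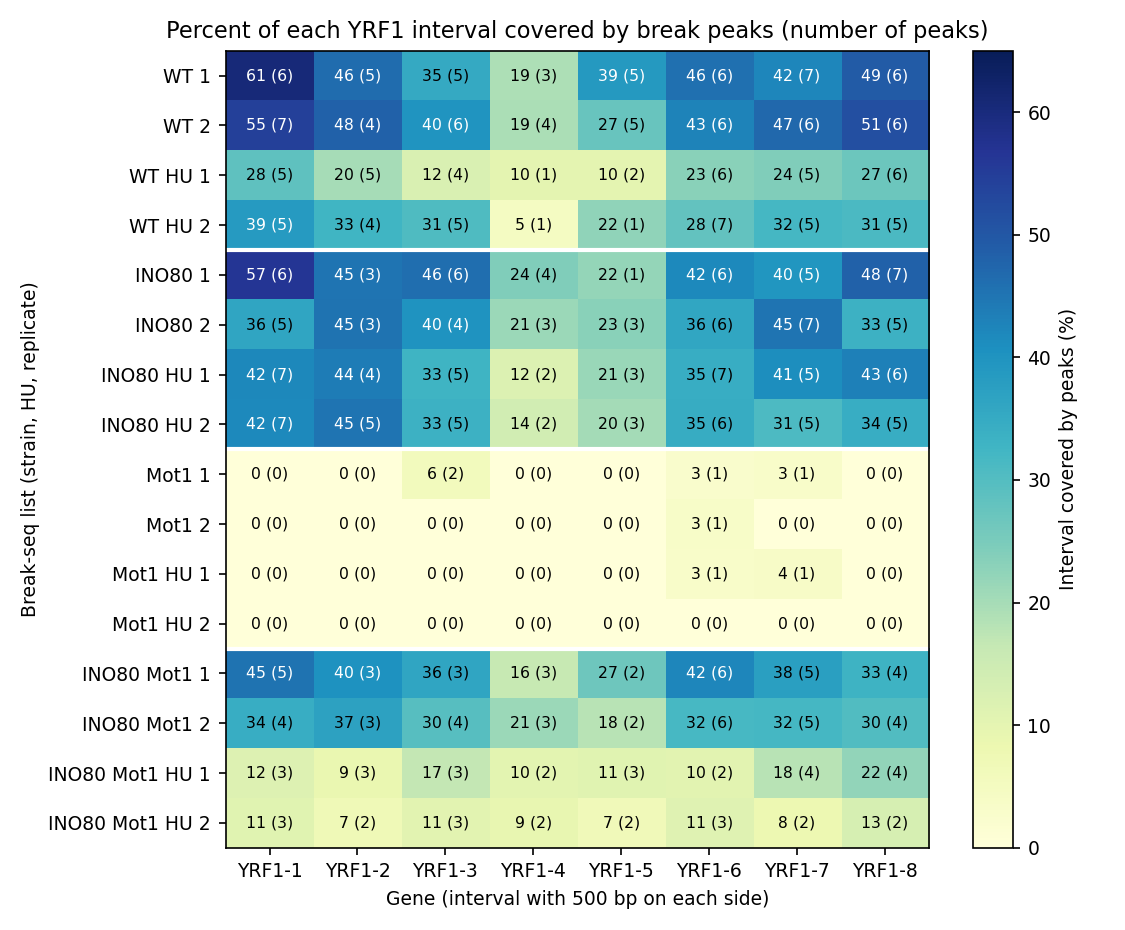
Percent of each YRF1 interval covered by break peaks (colour and first number) and number of peaks (in brackets), with the 8 genes as columns and the 16 Break-seq lists as rows. The rows of the 4 Mot1 lists are nearly empty, the column of YRF1-4 is pale throughout, and rows with HU are paler than those without in WT and INO80 Mot1.

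Peak summits were counted in zones along the genes. The zones differ in length, the body being the longest, so the counts are not densities. Of the 410 peaks in long lists, 96 (23.4%) had their summit in the end zone, which runs from the last 500 bp of the gene outward, 227 (55.4%) in the body, 65 (15.9%) in the first 800 bp and 22 (5.37%) upstream of the start codon. The highest peak, here and below by fold, lay in the end zone in 71 of 96 combinations of gene and list (74.0%). It lay in the first 800 bp in 18 and in the body in 7. The order by read pileup could differ, and in the WT libraries without HU it differed at most members. In the first of them YRF1-2 was the only member whose end peak had the highest pileup. In the second this held only at YRF1-2 and YRF1-4. In the first INO80 library without HU it held at YRF1-2, YRF1-4, YRF1-5 and YRF1-8. In the first WT library the end peak of YRF1-1 had 94 reads over a background of 36.9. A body peak there had 113 over 53.5. At YRF1-2 in that library the end peak had 112 reads and the highest body peak 82. The end peaks of YRF1-2, YRF1-3 and YRF1-7 there had a background of 31.1 reads, the lowest of that list. The part of the background in the order by fold was not tested. These zones were set with the summits known and serve as description.

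The end peak lay past the last base of the reading frame, on the telomere side. An end zone summit was present in 92 of the 96 combinations, the highest one lay beyond the gene in 85 of 92, and 69 of 92 lay 100 to 300 bases beyond it. Median distances past the last base were 48 at YRF1-1, 104 at YRF1-5, 113 at YRF1-7, 151.5 at YRF1-3, 153 at YRF1-2, 158.5 at YRF1-6, 160 at YRF1-4 and 213.5 bases at YRF1-8. The end peak was therefore at a like place in members of different length. A summit within 500 bp of the gene end in all 12 long lists was found for 21 of 6002 protein-coding genes (0.350%), 5 YRF1 genes among them. This is 13.1% of the 160 protein-coding genes with a peak in at least 4 lists.

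By fold, the end peaks were among the higher peaks of their lists at most copies. At YRF1-2 the end peak was the highest peak of the gene in all 12 long lists, with a fold of 2.81 to 4.88 (median 3.97). At YRF1-8 it was also the highest in all 12, with a fold of 3.18 to 4.96 (median 3.72). At YRF1-4 the highest peak had a fold of 1.96 to 3.34 (median 2.36) and a median percentile of 51.4 among all peaks of its list. It was thus middling in fold. For the other 7 genes the median percentile of the highest peak ran from 84.2 at YRF1-1 to 96.0 at YRF1-3.

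A second fixed peak marked the 3 longest copies. YRF1-3, YRF1-6 and YRF1-7, the genes of 5728 bp, each had a summit 261 to 364 bases after the first base of the start codon in all 12 long lists, with medians of 334, 327.5 and 330.5 bases and folds of 2.77 to 5.32. These start peaks stood at the 85.5 percentile of their list or higher. A summit within 500 bp of the gene start in all 12 long lists was found for 7 of 6002 protein-coding genes (0.117%), 4.38% of the 160. Those 3 genes are among the 7.

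The other copies had a start peak of lower fold or none. YRF1-8 had a summit in its first 800 bp in 11 of the long lists, with a fold of 1.68 to 2.41, and YRF1-1 in 9, with a fold of 1.90 to 2.36. YRF1-4 had one in 6 lists, YRF1-5 in 1 and YRF1-2 in none. Within the bodies, a summit between 4300 and 4100 bases before the gene end occurred in YRF1-1 (10 long lists), YRF1-8 (7) and YRF1-5 (3), the 3 genes of 5391 bp, and in no other member. A summit between 1100 and 900 bases before the end occurred in all 8 genes, in 3 lists at YRF1-1 and at YRF1-4 and in 9 at YRF1-3 and at YRF1-6. Both windows were chosen after the summits were seen.

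**Figure D2:**
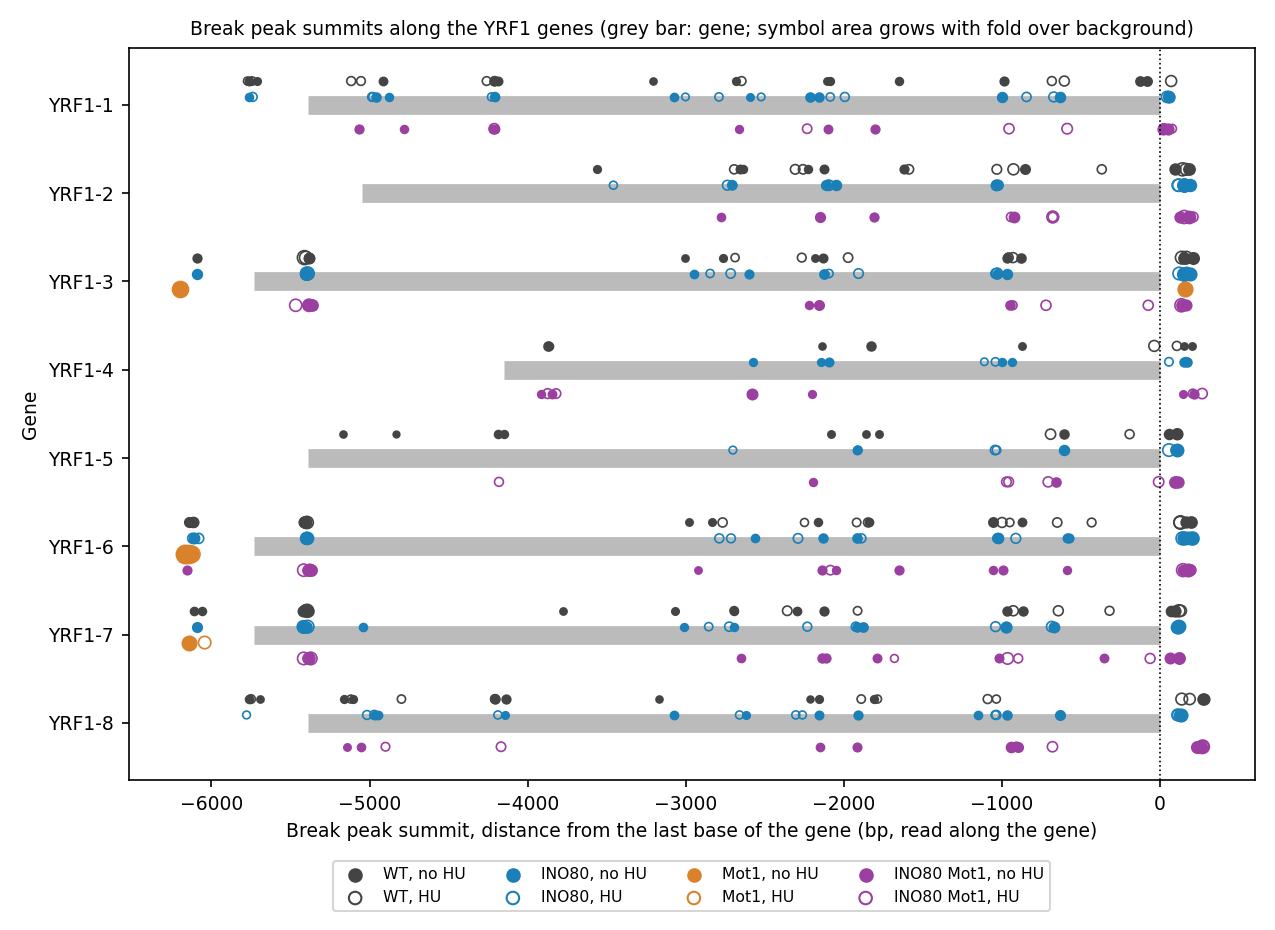
Summits of all break peaks in the YRF1 intervals, one row per gene (grey bar), placed by distance in bp from the last base of the gene and read along it, so that the telomere lies to the right. Each symbol is 1 peak, coloured by strain, open with HU, and its area grows with fold; columns of symbols stand past the end of most genes, near the start of YRF1-3, YRF1-6 and YRF1-7, and the Mot1 symbols lie almost all upstream of the start.

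The Mot1 lists held almost only upstream peaks. At YRF1-6 a summit lay 437, 416 and 396 bases before the start codon in 3 of the 4 Mot1 lists, with folds of 8.92, 8.62 and 7.09. YRF1-7 had upstream summits at 417 bases (fold 5.60) and 315 bases (fold 4.27), and YRF1-3 had one at 472 bases (fold 6.89). The only other YRF1 peak in these lists was an end peak of YRF1-3 in the first Mot1 library without HU, with a fold of 5.74. The long lists held 7 upstream peaks at YRF1-6, with folds of 2.18 to 3.04, 6 at YRF1-1, 4 at YRF1-8, 3 at YRF1-7 and 2 at YRF1-3, but none at YRF1-2, YRF1-4 or YRF1-5. A fold is taken over the local background of 1 library, which was lower in 3 of the 4 Mot1 lists, so these folds are not compared between lists.

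Hydroxyurea went with less of each YRF1 interval covered in WT and in INO80 Mot1 cells. In WT, YRF1-1 was covered to 60.5% and 54.6% without HU and to 28.4% and 38.5% with HU, and YRF1-8 to 49.1% and 51.4% against 26.7% and 31.1%. YRF1-2 went from 46.4% and 48.2% to 20.03% and 32.6%. All 8 genes were lower with HU in WT without overlap of the 2 pairs, against 24.5% of the 192 genes, and the median difference was -17.7 points for the members and -0.02 for the 192 genes. In INO80 Mot1 cells YRF1-6 was covered to 42.3% and 31.7% without HU and 10.4% and 11.1% with it, and YRF1-2 to 40.3% and 36.9% against 8.80% and 6.95%. All 8 genes were again lower, but here 55.7% of the 192 genes were (median difference -20.5 points for members, -12.6 over all).

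In INO80 cells the differences with HU were smaller. YRF1-2 was covered to 45.2% in each library without HU and to 43.7% and 45.0% with it, and YRF1-3 to 46.2% and 39.9% against 32.8% and 33.4%. Of the 8 genes 5 were lower without overlap and 3 overlapped, beside 22.9% of the 192 genes, with median differences of -4.41 points for the members and -0.43 over all. In the Mot1 lists no member separated, beside 2.6% of the 192 genes. With 2 libraries against 2, the smallest two-sided p of an exact permutation test is 0.333, so no difference within a strain could pass a threshold, and whether the HU difference depended on the strain was not tested.

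Over all 16 lists no YRF1 gene passed the threshold for HU. An exact two-sided permutation test within strains (1296 arrangements), with Benjamini-Hochberg adjustment over the 192 genes, called 0 of 8 genes lower, as it called 0% of the 192. Differences ran from -14.3 points at YRF1-1 to -7.65 points at YRF1-4, with adjusted p of 0.0847 to 0.192 by this permutation test. At an unadjusted p under 0.05 all 8 genes were lower with HU, beside 20.8% of the 192 genes, with raw exact permutation p from 0.00309 at YRF1-6 to 0.0370 at YRF1-8. When coverage was taken as a share of all peak bases of each list, 3 of the 8 reached that level.

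Other measures of the lists moved with HU as well. The median background under peaks was 37.0 and 37.9 reads in WT and 17.5 and 20.7 with HU, 27.2 and 32.9 reads in INO80 Mot1 and 21.7 and 11.2 with HU, but 24.7 and 21.8 reads in INO80 and 21.5 and 23.1 with HU. Their part in the result was not tested. YRF1 peaks in WT had a median width of 365 and 415.5 bp without HU and of 242.5 and 325 bp with HU, while peaks elsewhere had medians of 235 and 280 bp without and 266 and 309 bp with HU. In INO80 Mot1 cells both kinds were narrower with HU, the YRF1 peaks with 262 and 247 bp against 414 and 422 bp and the others with 251.5 and 243 bp against 375 and 343 bp.

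The background under YRF1 peaks relative to that under the other peaks of the same list was lower in each library with HU than in each without, in all 3 strains with long lists. This ratio was 1.25 and 1.11 in WT against 0.744 and 0.932 with HU, 1.09 and 0.993 in INO80 against 0.854 and 0.956, and 1.05 and 0.963 in INO80 Mot1 against 0.676 and 0.617. In the Mot1 lists, which held 4, 1, 2 and 0 YRF1 peaks, the ratio was 0.833 and 1.06 without HU and 1.28 in the first library with HU, so it was not lower there. The measure was chosen after the values were seen and carries no test.

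**Figure D3:**
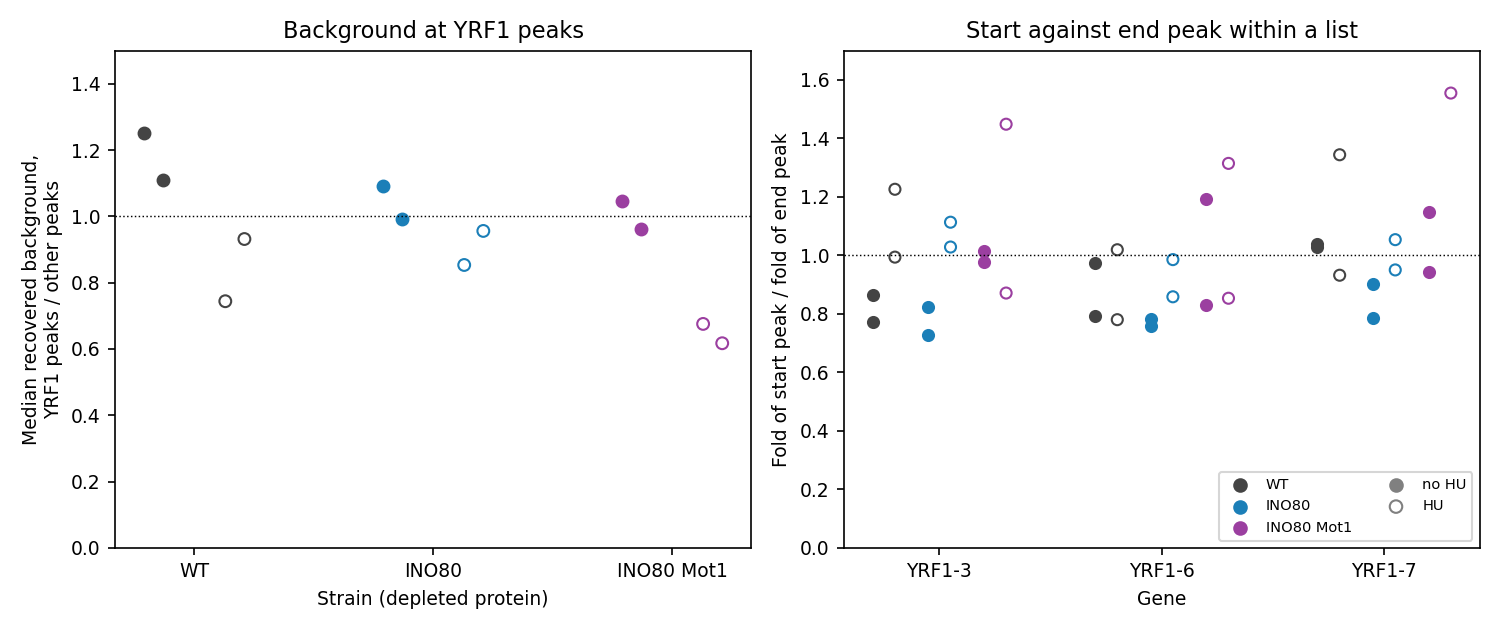
Left, the median recovered background at YRF1 peaks divided by that at all other peaks of the same list, one point per library of WT, INO80 and INO80 Mot1 (filled without HU, open with HU; Mot1 not drawn); right, the fold of the start peak divided by the fold of the end peak of the same gene in the same list, for YRF1-3, YRF1-6 and YRF1-7. On the left the open points of these 3 strains lie below the filled points of the same strain, down to 0.617; on the right the filled and open points overlap and run from 0.727 to 1.56.

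The start and end peaks of the 3 longest copies had like folds within a list, but their pileups and backgrounds could differ. In the first WT library the YRF1-3 start peak had a pileup of 135 reads over a background of 47.4. Its end peak had 116 over 31.1. The YRF1-3 start peak had the larger pileup in every long list except the second INO80 library without HU. There it had 79 over 21.1 and the end peak 90 over 17.3. Start and end pileups were 131 and 103 in the second WT library without HU. They were 37 and 35 in the second INO80 Mot1 library with HU. The background was lower under the YRF1-3 end peak in every long list. At YRF1-3 the ratio of start to end fold ran from 0.727 to 1.01 without HU (median 0.844, n = 6 lists) and from 0.871 to 1.45 with HU (median 1.07, n = 6), and the ranges overlapped. At YRF1-6 it ran from 0.757 to 1.19 (median 0.811) and from 0.780 to 1.31 (median 0.922). At YRF1-7 it ran from 0.787 to 1.15 (median 0.987) and from 0.932 to 1.56 (median 1.05, n = 5).

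INO80 depletion alone did not move all YRF1 genes one way. Against WT without HU, YRF1-3 was covered to 46.2% and 39.9% against 35.2% and 39.7%, and YRF1-4 to 24.1% and 21.3% against 19.2% and 19.3%, so both were higher without overlap. YRF1-5 was lower, with 21.9% and 23.1% against 38.6% and 27.2%, and so were YRF1-2, YRF1-6 and YRF1-8. Thus 2 genes were higher (36.5% of the 192 genes were), 4 were lower (18.8% of the 192) and 2 overlapped.

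With HU the INO80 lists were the higher ones. YRF1-2 was covered to 43.7% and 45.0% against 20.03% and 32.6% in WT, the widest gap among the members, and YRF1-8 to 43.3% and 34.4% against 26.7% and 31.1%. Of the members 6 were higher without overlap, beside 41.1% of the 192 genes, and YRF1-5 and YRF1-7 overlapped. The median difference was 8.67 points for the members and 5.21 over all.

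The test over all 16 lists, stratified by Mot1 depletion and HU, called 3 of 8 YRF1 genes higher with INO80 depletion, beside 43.8% of the 192 genes. They were YRF1-2 (15.6 points, adjusted p = 0.0274 by the exact permutation test), YRF1-3 (15.2 points, adjusted permutation p = 0.00988) and YRF1-4 (9.36 points, adjusted permutation p = 0.00988). The other 5 differed by 6.26 to 12.4 points, with adjusted permutation p of 0.0533 to 0.183. Without lists of fewer than 50 peaks 36 arrangements remain, whose smallest p is 0.0556, so no gene could be called and the contrast cannot be tested among long lists. In the strata with Mot1 depletion all 8 genes were higher in INO80 Mot1 than in the short Mot1 lists, by a median of 32.4 points without HU (76% of the 192 genes higher) and 10.4 points with HU (58.3%).

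Mot1 depletion went with lower coverage at all 8 YRF1 genes, most of it against the short lists. In the Mot1 lists without HU, YRF1-1, YRF1-2, YRF1-4, YRF1-5 and YRF1-8 had no peak, whereas in WT they were covered to 19.2% or more. YRF1-6 was covered to 2.74% and 3.43% against 45.8% and 42.7%. All 8 genes were lower than in WT without overlap, beside 76.6% of the 192 genes without HU and 69.3% with HU. The test over 16 lists called 8 of 8 genes lower, beside 68.8% of the 192 genes, with differences of -32.1 points at YRF1-1 to -8.47 points at YRF1-4 and adjusted exact permutation p of 0.0129 to 0.0159. Without the short lists no gene could be called, since the smallest p is then 0.0556.

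Among long lists, Mot1 depletion can be read only on top of INO80 depletion. Without HU 5 of 8 genes were lower in INO80 Mot1 than in INO80 without overlap (20.8% of the 192 genes, median difference of members -6.58 points and of all -0.53). YRF1-3 was covered to 36.3% and 29.6% against 46.2% and 39.9%, and YRF1-5 to 26.5% and 17.8% against 21.9% and 23.1%, so YRF1-5 overlapped. With HU all 8 were lower (68.2% of the 192 genes, -22.1 and -11.0 points), for example YRF1-1 with 11.6% and 10.8% against 42.0% and 41.7%. Against WT, the INO80 Mot1 lists were lower without overlap at 6 genes without HU (20.8% of the 192) and at 5 with HU (42.2%). These comparisons share their WT and INO80 lists with those above.

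In terms of presence the YRF1 genes differed only from the Mot1 lists, since each had a peak in every long list. Without HU 5 genes had a peak in both WT lists and in neither Mot1 list, beside 20.2% of the 709 genes with any peak, and 6 with HU, beside 21.2%.

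**Figure D4:**
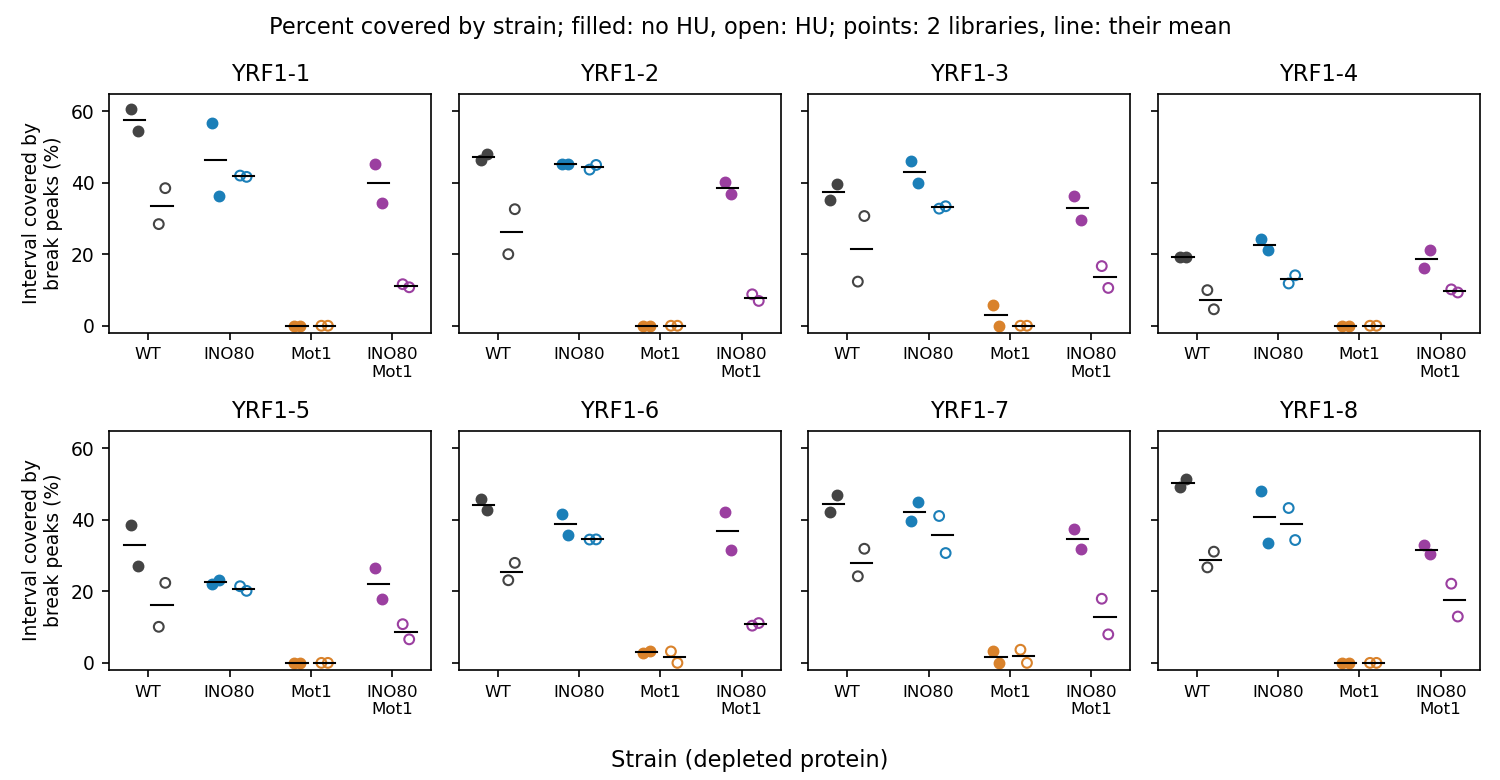
Percent of the interval covered by break peaks for each YRF1 gene, by strain; each point is 1 library (2 per group), filled without and open with HU, and the line is the mean of both. Open points sit below filled ones in WT and INO80 Mot1 at all 8 genes, INO80 points with and without HU lie close together at YRF1-2 and YRF1-5, and Mot1 points lie at or near 0.

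Orc5 peaks flanked a few of the genes and lay within none. Without rapamycin 3 of 8 intervals overlapped an Orc5 peak, beside 34.0% of all nuclear genes, and with rapamycin 2 of 8, beside 44.1%. Without flanks 0 of 8 genes overlapped one in either list, beside 16.3% and 20.8% of nuclear genes. With 1 library each there is no test, and 8 genes allow only a coarse share.

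The flanking Orc5 peaks differed in side and width. At YRF1-3 a wide peak, VII:1080728-1084474, ended 390 bp upstream of the gene, and it was also present with rapamycin. At YRF1-4 a peak of 200 bp, XII:1071458-1071657, lay 223 bp downstream, in the gap before YRF1-5, and was listed without rapamycin only. At YRF1-8 a peak at XV:1091238-1091441 lay 375 bp downstream, on the telomere side, in both lists. The nearest Orc5 peak without rapamycin lay 626 bp upstream of YRF1-6, 851 bp upstream of YRF1-5, 1014 bp upstream of YRF1-1, 1138 bp upstream of YRF1-2 and 34408 bp from YRF1-7.

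Break peaks met these Orc5 peaks to different extents. A break peak overlapped the Orc5 peak between YRF1-4 and YRF1-5 in 12 of 12 long lists, and that beyond YRF1-8 (without rapamycin) in 8 of 12. The Orc5 peak past YRF1-4 starts at XII:1071458, and the break peaks there ended at 1071495 to 1071618. Their summits, at 1071200 to 1071450, lay before it, except that of the second INO80 Mot1 library with HU, at 1071503. At YRF1-8 the break peaks met only the edge of the Orc5 peak, which starts at XV:1091238. They ended at 1091238 to 1091267, and their summits, at 1090979 to 1091140, lay before it. With rapamycin, where the Orc5 peak starts at 1091237, the count was 9 of 12. The wide Orc5 peak upstream of YRF1-3 was overlapped in 2 of 12. The break peaks in the gap between YRF1-4 and YRF1-5 are end peaks of YRF1-4, and in 11 lists they ended 890 to 998 bp upstream of YRF1-5, with folds of 1.63 to 3.34, so they lie outside the YRF1-5 interval.

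Arp5, a subunit of the INO80 complex, could not be set apart at YRF1 genes. The 4 Arp5 lists cover the chromosomes of 3 of the 8 genes (5 in the second list with rapamycin), and every one of them had an Arp5 peak, as did 98.2% to 99.1% of all genes on those chromosomes. At YRF1-3 and YRF1-8 the widest of these peaks spanned 91250 and 91486 bp in the first list without rapamycin.

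The genes whose coverage over the 16 lists was most like the mean of the 8 members included 3 at chromosome ends. By mean absolute difference in percent covered, the 5 nearest were YEL077C (2.91 points), YLL067C (3.63), YFL002W-A (3.72), YGR038C-A (3.96) and YHL050C (4.11), beside 2.28 points for YRF1-6 and 11.2 for YRF1-4 themselves. YEL077C, YLL067C and YHL050C are the outermost annotated genes at the left ends of chromosomes V, XII and VIII, and YFL002W-A and YGR038C-A lie inside chromosomes VI and VII. Of the 16 frames without a gene name, at least 1000 bp long and among the 3 outermost genes of a chromosome end, 13 had a break peak in some list and 11 in all 12 long lists, with a median percent covered of 30.9% (0% to 47.9%). Lower coverage with HU was found among these frames too. Over the 16 lists the difference was -16.0 points at YLL067C, -15.7 at YHR219W, -15.3 at YBL111C, -14.4 at YHL050C and -13.6 at YEL077C. It was -11.2 at YFL066C, -11.1 at YIL177C, -10.7 at YJL225C, -9.67 at YLL066C, -8.93 at YBL113C and -7.68 at YHR218W. Not every such frame is listed. The members ran from -14.3 to -7.65 points.

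Genes with roles at telomeres, and other families at chromosome ends, had a break peak in few lists. A peak in at least 1 list was found for 709 of the 6431 nuclear genes (11.0%). Of 24 genes of telomere upkeep and recombination 4 (16.7%) had a peak, each in 1 list, among them EST1, a telomerase subunit, and YKU80, of the Ku end-binding complex. Of 10 other helicases MPH1 (10%) had one, in 1 list. Of 24 seripauperin genes (PAU), a family found near chromosome ends, 5 (20.8%) had a peak, and of 12 COS genes, another such family, COS2 and COS5 (16.7%) had one, in 2 lists each. None of the listed genes had a peak in 4 or more lists.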

How the data were processed

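Of the 30 samples, 22 have a deposited peak list (Break-seq 16, Orc5 2, Arp5 4); the 8 NET-seq samples are not analysed here. The submitters' processing notes name Bowtie2 and sacCer3 without versions; for the peak callers and the placing of multiply matching reads, the methods are not stated in any source used. Per the labels' protocols, read length was 75 bp (Break-seq) or 50 bp (ChIP). The ChIP protocol speaks of Orc2, whereas the genotypes are Orc5 and Arp5, and names follow the genotypes.

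Each deposited Break-seq peak has a score, a fold over local background, a summit, and −log10 of a p-value and of a q-value. Each Arp5 peak has an enrichment ratio and a q-value, per the file headers. The deposited Orc5 lists hold positions only (1415 and 1968 peaks, of which 4 and 15 of zero width were left out). Fold, score and q are the authors' values. Peaks were ranked, selected and set in ratio within a list. Ranges and medians of fold over lists are descriptions only.

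Genes came from a RefSeq table of assembly R64 (6431 nuclear genes of 6477). Percent covered was tested for all 192 genes with a peak in at least 4 lists, by exact two-sided permutation within strata and Benjamini-Hochberg adjustment at 0.05; the smallest p of 1296 arrangements is 0.00154. Depth is unknown: as a proxy, whole pileups and backgrounds were solved from fold and p under a Poisson model, within 0.001 of −log10 p. The procedure was tested on simulated data. Python 3.11.15, numpy 2.4.6, pandas 2.3.3 and scipy 1.17.1 were used.

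Members, gene lists and zones were chosen with earlier results of these data known. The genes to be named were the 8 members, frames with YRF1-like proteins and the 5 genes of most similar coverage. The rule on proteins could not be run, so frames without a gene name at chromosome ends were used instead, chosen after the files were seen, and the 5 similar genes were not cleared of related frames. Alternatives covered scaling, score, flanks, overlap, the gene filter, short lists, the replicate block and each library left out.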

Additional observations from a re-analysis of the deposited data

Results flagged for a closer look

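The difference between INO80-depleted and INO80-containing libraries without HU pointed down in cells with Mot1 and up in other settings at 4 YRF1 genes, without overlap of the libraries in either. The difference between these effects was not tested. At YRF1-2 the effect in cells with Mot1 and without HU was lower than that with HU by -20.1 points, than that in Mot1-depleted cells without HU by -40.7 points and than that in Mot1-depleted cells with HU by -9.97 points. At YRF1-6 the 3 gaps were -14.4, -39.3 and -14.6 points, and at YRF1-8 they were -19.4, -41.2 and -27.0 points. At YRF1-5 the gaps were -32.6 and -19.1 points against the Mot1-depleted cells without and with HU. Gaps against Mot1-depleted cells rest on the 4 short Mot1 lists, and the 3 genes flagged within long lists share their WT and INO80 libraries.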

How the results depend on the processing

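The 8 YRF1 genes under 24 alternatives give 192 values per contrast. All kept their direction and side of the threshold for HU, 163 did for INO80 depletion (10 gained the call, 10 lost it, 9 reversed) and 164 for Mot1 depletion (26 lost the call, 2 reversed). HU called 0 genes under each of the 24. For INO80 depletion the count of 3 fell to 1 with peaks at or above the median score, was 0 by construction without short lists, and ran from 3 to 6 with a library left out, 6 without the second INO80 library; the 84 genes called of all fell to 45 when scaled to peak bases, 34 with the score limit and 30 with genes in at least 1 list. For Mot1 depletion the count of 8 fell to 2 when scaled to peak bases, to 5 with the score limit and with genes in at least 1 list, was 0 by construction without short lists, and stayed at 8 with each library left out; the 133 genes called of all fell to 22, 70 and 23.

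With the score limit, genes with a peak in every long list fell from 8 to 5 and the median percent covered from 31.7 to 19.4. Without flanks 0 genes overlapped Orc5 in either list, and with at least 50% of the peak's width required inside 1 did with rapamycin. Under scaling to peak bases the INO80 difference at YRF1-6 turned to -0.206 percent of peak bases. Without short lists it turned to -1.39 points at YRF1-1 and -2.91 at YRF1-5. An alternative chosen after seeing the data kept the 180 peaks of lowest q in each long list: it called 0 genes for HU, could call none (0) for either depletion, and turned INO80 differences to -8.98 at YRF1-1, -0.753 at YRF1-4, -2.97 at YRF1-5, -0.637 at YRF1-6, -0.853 at YRF1-7 and -8.30 at YRF1-8, and Mot1 differences to 3.65 at YRF1-4 and 7.74 at YRF1-8. With long lists alone the depletions have 36 arrangements and a smallest p of 0.0556, so these counts of 0 say nothing about stability. The cause of the other changes was not tested.

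Replicate numbers did not pair the libraries (28 pairs of groups, correlation -0.396 to 0.294, median -0.0213). With a replicate block the counts were 0 for HU, 2 for INO80 depletion (31 genes of all) and 8 for Mot1 depletion (67 of all).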
